A study of Mus musculus with 18 samples.

Results

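The transcripts described here are those of 8 mouse basic helix-loop-helix (bHLH) genes that control or mark the making of neurons: Neurog1, Neurog2, Neurod1, Neurod4, Nhlh1, Nhlh2, Atoh1 and Hes5. They were chosen by name, with earlier results of these data known. Every probe set whose annotation gave 1 of these symbols alone was taken. This gave 13 of the 45037 probe sets of the table, for 8 of its 18193 genes. They were read in 18 whole mouse embryos at embryonic day 9.5 that carried 9 combinations of alleles of Tbx1, a T-box transcription factor gene of the pharyngeal apparatus and otic vesicle. Each genotype had 2 embryos, each hybridised to its own Affymetrix mouse expression array, on a mixed 129SvEv and C57Bl/6 background. The genotypes with 0 wild-type alleles were -/- (null for Tbx1), Neo/Neo, Neo2/-, Neo2/Neo2 and Neo2/Neo, those with 1 were +/-, Neo/+ and Neo2/+, and WT had 2. Neo and Neo2 are hypomorphic alleles, which leave part of the function of Tbx1. All alleles are constitutive, so Tbx1 was altered throughout the embryo, and the embryos were staged by day of gestation, with no count of somites in the labels. Values are log2 signals of a probe set after RMA, without detection calls, and dim signals may be background alone.

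Proneural bHLH factors such as the neurogenins and Atoh1 pair with E proteins, bind E-box sequences and commit progenitors to a neuronal fate, while they switch on Notch ligands that hold back neighbouring cells. Neurod1, Neurod4, Nhlh1 and Nhlh2 act later in the same cascade, in cells that leave the cycle and differentiate. Hes5 is a Notch effector that represses proneural genes and keeps neural progenitors undifferentiated. In the otic vesicle Tbx1 is known to restrain neurogenesis, including the expression of Neurog1 and Neurod1. In RNA of whole embryos, fewer cells of a type and less RNA per cell cannot be told apart, and signal from the otic vesicle cannot be separated from that of the neural tube and ganglia.

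The sequences upstream of 3 members are shown because these genes stand for the steps of the cascade whose signals varied together over the embryos: Hes5 for the Notch response, Neurod1 for differentiation, and Nhlh2 for the late cascade, where the embryos differed most. They are the 250 bases before the annotated start in RefSeq, assembly GRCm38.p6, read 5′ to 3′ on the strand of the gene. Hes5 lies at chr4:154960673-154960922 on the plus strand, Neurod1 at chr2:79456637-79456886 on the minus strand and Nhlh2 at chr3:102009895-102010144 on the plus strand. Capitals mark matches to the E-box CANNTG and to GTGGGAA, the core read by Rbpj, the DNA-binding partner of Notch, searched on both strands.
Hes5: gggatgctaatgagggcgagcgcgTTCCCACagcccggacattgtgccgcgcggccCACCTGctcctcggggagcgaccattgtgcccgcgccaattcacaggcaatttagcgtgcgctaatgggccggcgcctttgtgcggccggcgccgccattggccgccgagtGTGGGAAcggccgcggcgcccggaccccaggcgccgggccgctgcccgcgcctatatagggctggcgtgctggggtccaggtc
Neurod1: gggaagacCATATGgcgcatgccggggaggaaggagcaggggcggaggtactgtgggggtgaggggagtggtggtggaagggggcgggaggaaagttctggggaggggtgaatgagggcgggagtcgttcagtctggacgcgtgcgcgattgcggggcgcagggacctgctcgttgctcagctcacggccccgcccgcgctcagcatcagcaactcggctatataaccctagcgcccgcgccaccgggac
Nhlh2: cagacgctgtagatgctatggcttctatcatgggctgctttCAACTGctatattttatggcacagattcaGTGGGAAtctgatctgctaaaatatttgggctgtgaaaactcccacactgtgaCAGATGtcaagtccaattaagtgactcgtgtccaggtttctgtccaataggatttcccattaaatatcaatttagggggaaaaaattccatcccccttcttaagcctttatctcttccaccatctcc
The Hes5 window held GTGGGAA at 226 bases (as its reverse complement) and at 83 bases before the start, and the Nhlh2 window held it at 180 bases. GTGGGAA was found in 5.415% of the 32851 windows of this length in the table. CANNTG was found in 66.22% of all windows and, among the members, in those of Hes5, Neurod1, Nhlh1 and Nhlh2. Its form CATATG, found in 3.464% of all windows, lay in that of Neurod1 at 242 bases before the start. CAGATG, another form of CANNTG, found in 14.44%, lay in those of Nhlh1 and Nhlh2. A match describes the letters of these windows only.

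Array medians lay between 5.73 and 5.94 (log2), and precision is limited by having 2 arrays per genotype. Replicate 1 of +/- and replicate 1 of -/- stood apart, with median correlations with the other arrays of 0.975 and 0.985, so main results that rest on them are also given without them. Sex-linked transcripts marked 9 embryos as female, the pairs of -/- and WT among them, and 9 as male, the pairs of Neo/Neo and Neo2/Neo2 among them. Each other genotype held 1 of either sex. Tbx1 had log2 signals of 4.98 and 5.16 in -/-, against 6.54 and 6.63 in WT. The arrays labelled Neo2/Neo2 had 6.62 and 6.62 for Tbx1, at the WT level and above the 5.65 and 5.67 of Neo2/Neo, so for them a direction is a statement about arrays with that label.

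Neurog1, which commits precursors of sensory neurons in the cranial ganglia and the neural tube, is described at the brighter of its 2 probe sets. Its log2 signals were 7.62 and 7.35 in -/-, 7.90 and 7.58 in Neo/Neo, 8.24 and 7.73 in Neo2/-, 7.24 and 7.44 in Neo2/Neo2 and 8.12 and 8.15 in Neo2/Neo. In the other genotypes they were 7.72 and 7.57 in +/-, 7.59 and 7.38 in Neo/+, 7.75 and 7.73 in Neo2/+, against 7.49 and 7.78 in WT. Both Neo2/Neo embryos and 1 Neo2/- embryo were the highest, the arrays labelled Neo2/Neo2 and -/- replicate 2 were among the lowest, and WT lay between. The dimmer probe set spanned 6.08 to 6.68 and followed the brighter one only in part (Pearson r = 0.65, Spearman rho = 0.39 over 18 arrays).

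Neurog2, which acts in the spinal cord, brain and epibranchial placodes, had log2 signals of 7.79 and 7.63 in -/-, 8.14 and 7.89 in Neo/Neo, 8.39 and 7.73 in Neo2/-, 7.29 and 7.60 in Neo2/Neo2 and 8.41 and 8.54 in Neo2/Neo. Its signals in the others were 5.15 and 7.83 in +/-, 7.66 and 7.50 in Neo/+, 7.86 and 8.02 in Neo2/+, against 7.71 and 8.03 in WT. A single array, +/- replicate 1, lay far below all others, and without it and -/- replicate 1 the range of Neurog2 was 1.25 in place of 3.39. Both Neo2/Neo embryos were again among the highest and both Neo2/Neo2 arrays among the lowest of the rest.

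Neurod1, which drives neuronal differentiation downstream of the neurogenins, had 7.76 and 7.73 in -/-, 8.57 and 8.11 in Neo/Neo, 9.03 and 8.07 in Neo2/-, 7.93 and 7.81 in Neo2/Neo2 and 8.78 and 8.97 in Neo2/Neo. In the remaining genotypes Neurod1 had 8.40 and 8.11 in +/-, 8.20 and 8.09 in Neo/+, 8.52 and 8.53 in Neo2/+, against 8.47 and 8.36 in WT. The -/- embryos lay below every other array for this probe set and the Neo2/Neo2 arrays next to them, while Neo2/Neo and Neo2/- replicate 1 were the highest. At its dimmer probe set the -/- embryos did not lie together, with 7.66 in replicate 1 and 6.57 in replicate 2, against 7.05 and 7.25 in WT. Neurod4, a relative that acts in differentiating neurons, had 7.92 and 7.10 in -/-, 7.37 and 7.17 in Neo/Neo, 7.75 and 7.30 in Neo2/-, 6.71 and 6.83 in Neo2/Neo2 and 7.63 and 7.76 in Neo2/Neo. Its 2 brighter probe sets spanned 6.71 to 7.92 and 6.14 to 7.80, and the third stayed between 3.01 and 3.47 on every array. The highest Neurod4 array was -/- replicate 1 and the lowest Neo2/Neo2 replicate 1.

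Nhlh2, expressed in young postmitotic neurons, differed most. Its log2 signals were 8.88 and 6.56 in -/-, 9.10 and 8.19 in Neo/Neo, 9.03 and 8.02 in Neo2/-, 6.57 and 6.55 in Neo2/Neo2 and 9.33 and 9.51 in Neo2/Neo. With a wild-type allele they were 8.02 and 7.22 in +/-, 8.25 and 7.53 in Neo/+, 8.21 and 8.42 in Neo2/+, against 8.31 and 8.49 in WT. The arrays labelled Neo2/Neo2 and -/- replicate 2 lay close together at the bottom, both Neo2/Neo embryos at the top, and the 2 -/- embryos fell at opposite sides of WT. The SD of Nhlh2 over the 18 arrays was 0.92, larger than that of 99.7% of all probe sets, whose median SD was 0.16. Nhlh1, its close relative, had 6.48 and 5.52 in -/-, 6.67 and 6.38 in Neo/Neo, 6.63 and 6.18 in Neo2/-, 5.57 and 5.64 in Neo2/Neo2 and 6.74 and 6.88 in Neo2/Neo. Its order was much the same, with -/- replicate 2 and the Neo2/Neo2 arrays lowest and Neo2/Neo highest.

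Atoh1, which specifies dorsal neurons of the hindbrain and spinal cord, had 6.95 and 6.02 in -/-, 6.67 and 6.34 in Neo/Neo, 6.45 and 6.62 in Neo2/-, 5.56 and 5.80 in Neo2/Neo2 and 6.81 and 6.64 in Neo2/Neo. It spanned 5.56 to 6.95 over all 18 embryos, with -/- replicate 1 highest and Neo2/Neo2 replicate 1 lowest. Hes5, read at its brighter probe set, had 9.68 and 8.55 in -/-, 9.57 and 9.25 in Neo/Neo, 9.81 and 9.42 in Neo2/-, 8.93 and 8.93 in Neo2/Neo2 and 9.67 and 9.55 in Neo2/Neo. In the others it had 9.30 and 9.37 in +/-, 9.29 and 8.96 in Neo/+, 9.57 and 9.53 in Neo2/+, against 9.41 and 9.53 in WT. The Hes5 signal was low on arrays where most proneural members were low, among them -/- replicate 2 and both Neo2/Neo2 arrays. The brighter probe sets of Hes5 and Neurod4 are of types (x_at and s_at) whose probes can match other transcripts.

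**Figure D1:**
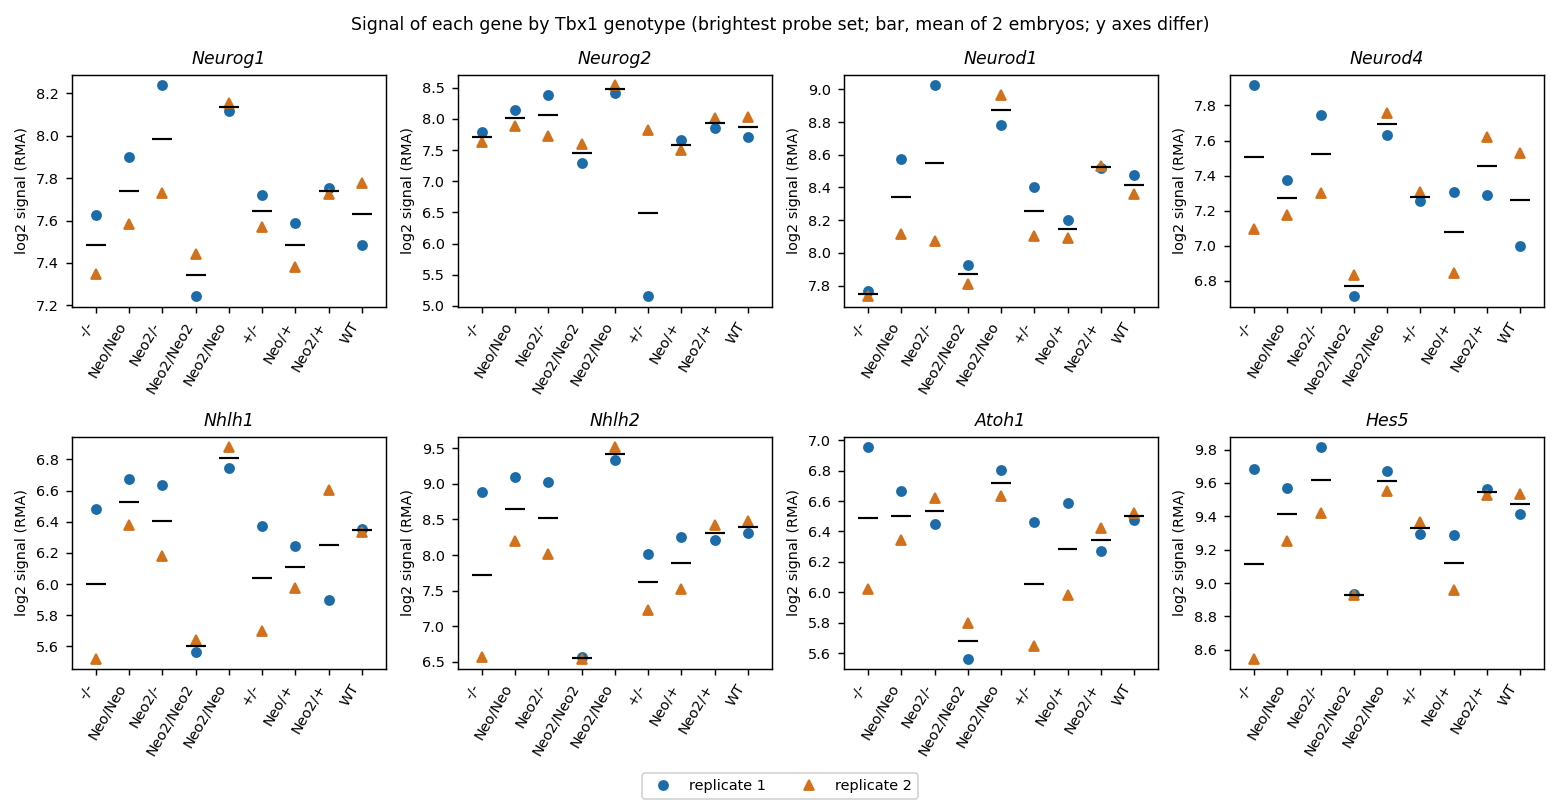
Log2 signal after RMA (y axis, a different range for each gene) of the brightest probe set of each of the 8 genes in the 9 Tbx1 genotypes (x axis), with circles for replicate 1, triangles for replicate 2 and bars for the mean of both embryos. Neo2/Neo had the highest mean for 7 of 8 genes and Neo2/Neo2 the lowest for 6 of 8, and in -/- the circle lies above the triangle for all 8.

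Set in order of their means, the genotypes ran alike for most members. Neo2/Neo had the highest mean of 7 of the 8 genes, and Neo2/- that of Hes5. Neo2/Neo2 had the lowest mean of 6, the exceptions being Neurod1, lowest in -/-, and Neurog2, lowest in +/-. The genotypes were sorted by these same means, so neighbours lie close by construction and their overlap is no test. Of the 8 neighbouring pairs of genotypes, the embryos overlapped in 7 for Neurog1, Neurog2, Neurod4, Nhlh1, Atoh1 and Hes5. They overlapped in 6 for Nhlh2 and in 5 for Neurod1. Where they overlapped, the order of the neighbours is not resolved. This count was not made over all probe sets. The widest step was in Nhlh2, between +/- (7.62 ± 0.56, SD, n = 2) and Neo2/Neo2 (6.56 ± 0.02), a gap of 1.06 against an SD within genotypes of 0.69. Averaged over the 8 genes as deviations from each gene's mean, Neo2/Neo lay at 0.55 and 0.61 and Neo2/Neo2 at -0.66 and -0.56, while the -/- embryos lay at 0.25 and -0.58.

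Whether the members differ among the 9 genotypes at all was asked with limma's moderated F-test. It called 0 of the 13 probe sets at a Benjamini-Hochberg adjusted p under 0.05, where it called 0.275% of all probe sets (124). The lowest adjusted p was 0.233, for Neurod1. An unadjusted p under 0.05 was found for 3 of the 13, against 6158 of all 45037 probe sets. With an array removed, 4 of 18 fits made 1 call: Neurog2 without +/- replicate 2 (adjusted p = 7.71e-05), Neurod1 without Neo2/- replicate 2, and Nhlh2 without either -/- embryo. Those fits called 10.6%, 0.304%, 1.06% (without -/- replicate 1) and 6.77% of all probe sets.

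Each mutant genotype was then set against WT, the comparison that the allelic series implies. No member passed in any of them, although the 8 genes often lay on 1 side. Most members varied together over these arrays, as given below, so genes on 1 side are not separate results. In -/- the median difference of the 8 genes was -0.25 (log2), with 7 of 8 below WT and 0 called by limma (1 at an unadjusted p under 0.05), where 0.0311% of all probe sets were called. Neurod1 had the lowest p, with log2 signals of 7.76 and 7.73 in -/-, against 8.47 and 8.36 in WT, a difference of -0.67 (SE 0.24, adjusted p = 0.222). The dimmer probe set of Neurod1 had -0.03 (SE 0.31). Nhlh2 had a difference of -0.67 (SE 0.58, 95% interval -1.94 to 0.59), and the -/- embryos lay on opposite sides of WT. In Neo/Neo, where Tbx1 had 5.04 and 5.20, the median was 0.06, with 0 called (0 at an unadjusted p under 0.05) against 0.0822% of all. In Neo2/- the median was 0.14 with 8 of 8 above WT and 0 called (0 unadjusted), against 0.00222% of all. Over all genes the medians were 0.02 in -/-, 0.01 in Neo/Neo and 0.02 in Neo2/-. Of all 45037 probe sets, 6806, 3158 and 2830 had an unadjusted p under 0.05 in these comparisons, in the same order.

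Neo2/Neo embryos lay above WT for 8 of 8 genes, with a median difference of 0.46 against a median of -0.01 over all genes, yet 0 were called (1 unadjusted), against 0.00222% of all probe sets. An unadjusted p under 0.05 was found there for 3027 of all 45037 probe sets. Neurog1 differed by 0.50 (SE 0.17, adjusted p = 0.640) and Nhlh2 by 1.03 (SE 0.58, adjusted p = 0.799). The arrays labelled Neo2/Neo2 lay below WT for 8 of 8 genes, with a median of -0.54 against 0.04 over all genes. Of the members 0 were called (5 unadjusted), against 0.00222% of all probe sets (5234 unadjusted). Nhlh2 was there at 6.57 and 6.55, against 8.31 and 8.49 in WT, a difference of -1.84 (SE 0.58, 95% interval -3.10 to -0.57, adjusted p = 0.269). When +/- replicate 1 and -/- replicate 1 were dropped, 2 members passed in that comparison, where 2.02% of all probe sets did.

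Among the genotypes that keep a wild-type allele, +/- had a median of -0.23 with 0 called (1 unadjusted) and 0% of all probe sets called. Neo/+ had -0.25 with 8 of 8 below WT and 0 called (1 unadjusted), against 0.0311% of all, and Neo2/+ had 0.07 with 0 called (1 unadjusted) and 0% of all called. Neurog2 in +/- rests on 1 array: its difference from WT was -1.38 (adjusted p = 0.416), -0.04 without +/- replicate 1 and -2.72 without +/- replicate 2 (adjusted p = 5.02e-06). Of all 45037 probe sets, 5277, 3314 and 2932 had an unadjusted p under 0.05 in +/-, Neo/+ and Neo2/+ against WT. All these comparisons share the WT arrays.

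Whether the members follow the dosage of Tbx1 was asked in both of its measures, the number of wild-type alleles and the Tbx1 signal. With 0 against 1 wild-type allele (10 embryos against 6) limma called 0 of 13 members (0 at an unadjusted p under 0.05) and 0% of all probe sets, with a median difference of 0.12. Regression on the Tbx1 signal called 0 of 13 (0 unadjusted) and 0% of all. Over all probe sets, 2038 had an unadjusted p under 0.05 for the allele number and 3938 for the Tbx1 signal. The slopes were negative for 7 of the 8 genes, with a median of -0.23 log2 per log2 of Tbx1, from -0.53 for Nhlh2 (SE 0.32, adjusted p = 0.608) to 0.01 for Neurod1 (SE 0.15, 95% interval -0.29 to 0.32).

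**Figure D2:**
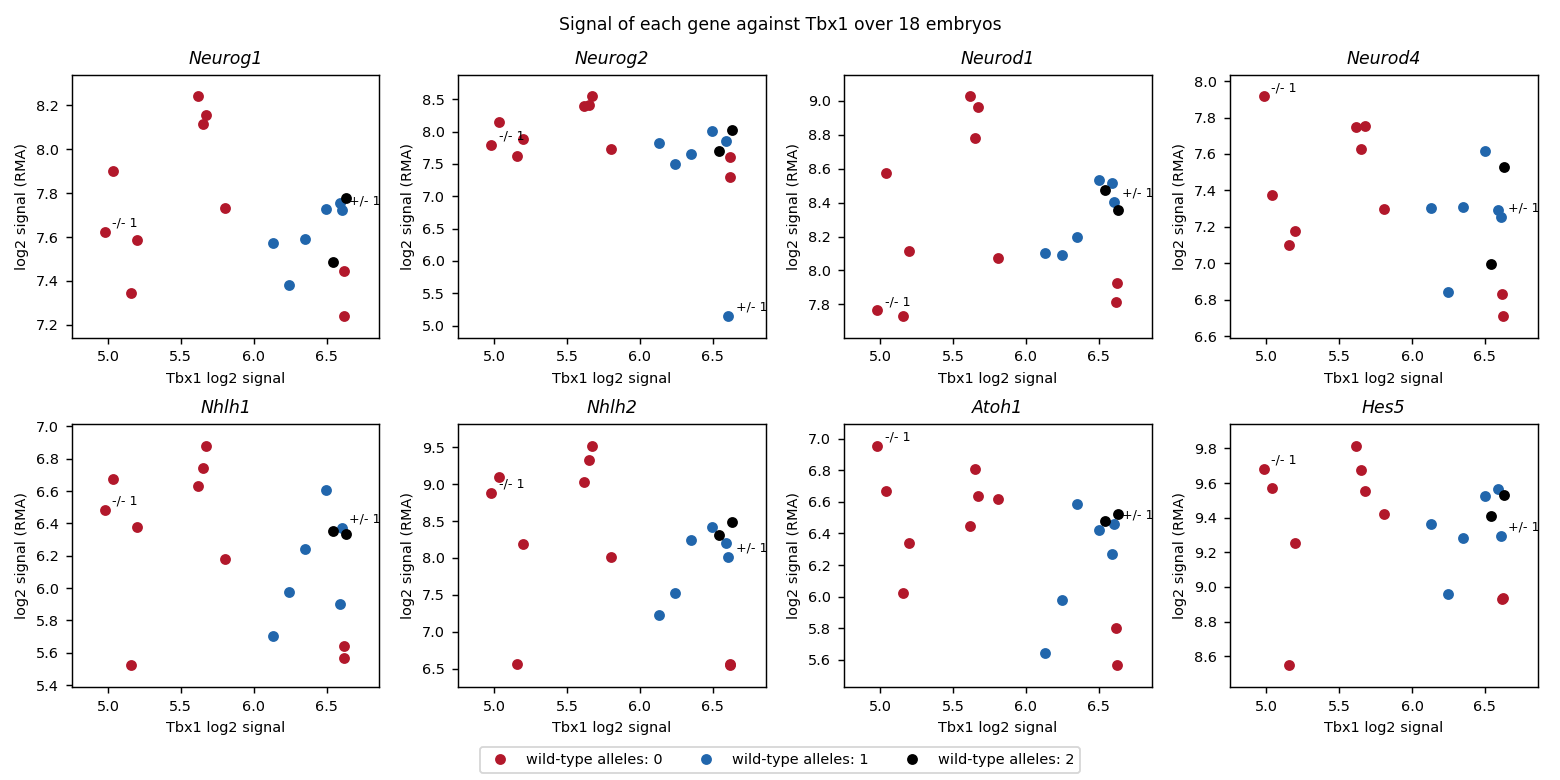
Log2 signal of each of the 8 genes (y axes) against the log2 signal of Tbx1 (x axis) in the 18 embryos, coloured by the number of wild-type alleles. Regression on Tbx1 called 0 of 13 probe sets, and the embryos without a wild-type allele hold both the highest and the lowest signal of each gene except Neurog2.

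Finally 2 pairs of genotypes without a wild-type allele were compared, both against Neo2/Neo and both chosen with earlier results of these data known. Since Neo2/Neo and Neo2/Neo2 are also where most members had their extreme means on these same arrays, the adjusted p-values do not cover the choice among the 36 pairs of genotypes, and the calls, of members and of the gene lists alike, describe these arrays. Complete loss of Tbx1 was the first. Neurod1 was called lower in -/-, with 7.76 and 7.73, against 8.78 and 8.97 in Neo2/Neo, a difference of -1.12 (SE 0.24, 2.18-fold lower, adjusted p = 0.0386). It was the only one of 13 member probe sets called, while 1.77% of all probe sets were called (798) and 1.08% were called lower. All 8 genes had negative differences, with a median of -0.71 against 0.05 over all genes. An unadjusted p under 0.05 was found for 5 of the 13 probe sets, against 8278 of all 45037. Neurog1 had 7.62 and 7.35 in -/-, against 8.12 and 8.15 in Neo2/Neo, a difference of -0.65 (SE 0.17, adjusted p = 0.0736).

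Nhlh2 had 8.88 and 6.56 in -/-, against 9.33 and 9.51 in Neo2/Neo, and its difference of -1.70 (SE 0.58, adjusted p = 0.143) passed without -/- replicate 1, the array that stood apart (-2.86, adjusted p = 0.0181), and was -0.54 (adjusted p = 0.546) without -/- replicate 2. The second probe set of Neurod1 had -0.58 (SE 0.31, adjusted p = 0.358). The Neurod1 call just passed: the number of members called was 0 without any 1 of the WT, Neo2/+, Neo/+, Neo2/Neo2 and Neo2/Neo arrays, where 0% to 1.19% of all probe sets were called. It was 2 without either +/- array (4.23% of all) or without -/- replicate 1 (2.2% of all), where Neurod1 itself had an adjusted p of 0.0761. It was 1 without -/- replicate 2 (11.6% of all) and 4 without both arrays that stood apart (5.23% of all).

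In the second pair, the arrays labelled Neo2/Neo2 were set against Neo2/Neo. Nhlh2, Neurog1 and Neurod1 were called lower, which is 3 of 13 member probe sets, where 2.65% of all probe sets were called (1195) and 1.68% were called lower. Nhlh2 had 6.57 and 6.55 in Neo2/Neo2, against 9.33 and 9.51 in Neo2/Neo, a difference of -2.86 (SE 0.58, 7.28-fold lower, adjusted p = 0.0272). Neurog1 had 7.24 and 7.44 in Neo2/Neo2, against 8.12 and 8.15 in Neo2/Neo, a difference of -0.79 (SE 0.17, adjusted p = 0.0356). Neurod1 had 7.93 and 7.81 in Neo2/Neo2, against 8.78 and 8.97 in Neo2/Neo, a 2.01-fold lower signal (SE 0.24 on the log2 scale, adjusted p = 0.0452).

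The other genes had differences of the same sign that did not pass: -1.21 for Nhlh1 (adjusted p = 0.0595), -0.92 and -1.18 for Neurod4, -1.04 for Atoh1, -1.03 for Neurog2 and -0.68 for Hes5 (adjusted p = 0.203). The median of the 8 genes was -1.02, against 0.06 over all genes. An unadjusted p under 0.05 was found for 10 of the 13 probe sets, against 7940 of all 45037. The dimmer probe set of Neurog1 had -0.35 (SE 0.13, adjusted p = 0.184), that of Neurod1 -1.04 (SE 0.31, adjusted p = 0.101) and that of Hes5 -0.47, while the dim probe set of Neurod4 had 0.01.

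The calls of this pair depend on the arrays used, as do those over all probe sets. They numbered 0 without any 1 of the 4 arrays compared (0% to 0.675% of all probe sets), 1 without either Neo2/+ array (1.58%), 2 without any 1 array of WT, Neo/+ or Neo/Neo (1.8% to 1.94%) and 3 without either Neo2/- array (2.46%). They numbered 6 without either +/- array (4.48% of all) and 9 without either -/- array (6.26% of all). Without both arrays that stood apart they numbered 10, against 11.1% of all, and Neurog2 was then called too (-1.03, adjusted p = 0.00942). Both Neo2/Neo2 embryos were male and Neo2/Neo had 1 of each sex. With embryo sex as a covariate 0 of 13 were called (0.722% of all), with little change in size: Nhlh2 then had -2.80 (adjusted p = 0.0619), Neurog1 -0.75 (0.0790) and Neurod1 -0.91 (0.0982).

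**Figure D3:**
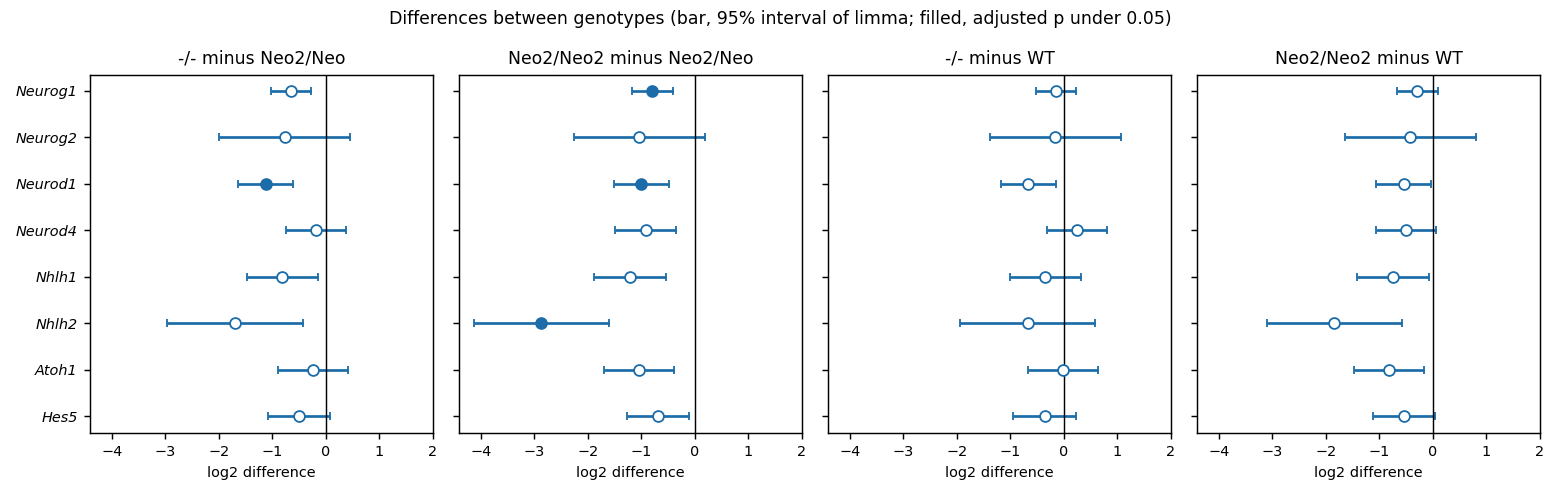
Log2 difference between genotypes for the brightest probe set of each gene (points, with 95% intervals from limma), in 4 comparisons with 2 embryos a group. Filled points passed an adjusted p of 0.05: Neurod1 in -/- minus Neo2/Neo, and Neurog1, Neurod1 and Nhlh2 in Neo2/Neo2 minus Neo2/Neo.

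Since the members differed between embryos of 1 genotype as well as between genotypes, their signals were regressed on that of Neurog1 over the 18 embryos. Nhlh2, Neurod1, Neurod4, Nhlh1, Hes5 and Atoh1 rose with Neurog1: 9 of the 11 member probe sets other than those of Neurog1 were called, all with positive slopes, where 4.45% of all probe sets were called (2003) and 2.99% with a positive slope. Nhlh2 had the steepest slope, 2.82 log2 per log2 of Neurog1 (SE 0.40, adjusted p = 0.000408; r = 0.85, rho = 0.84). Neurod1 had slopes of 1.21 (SE 0.17, adjusted p = 0.000346; r = 0.86) and 1.13 at its 2 probe sets, Nhlh1 had 1.23 (adjusted p = 0.00195) and Neurod4 had 0.96 (adjusted p = 0.00334) and 1.18. The median slope over the 7 other genes was 1.07, against -0.06 over all genes. Since the members were chosen with earlier results of these data known, these shares describe these arrays.

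Hes5 rose with Neurog1 as well, with slopes of 0.94 (SE 0.17, adjusted p = 0.00209; r = 0.80, rho = 0.86) and 0.71 (adjusted p = 0.00757). Atoh1 had 0.90 (SE 0.25, adjusted p = 0.0458) and passed in 6 of 18 fits with an array removed, those without replicate 1 of WT, Neo/+, Neo2/- or -/- or without either +/- array, with slopes of 0.74 to 1.13 over all 18. Neurog2 had 1.07 (adjusted p = 0.309; r = 0.41, rho = 0.82), and 1.13 (adjusted p = 7.98e-06) without +/- replicate 1. The dim probe set of Neurod4 had -0.02 (adjusted p = 0.958). The correlations are given as descriptions over 18 arrays that were normalised together. Leaving out 1 array gave 7 to 10 called probe sets, with 7 without Neo2/Neo2 replicate 1 or Neo2/Neo replicate 2 (2.48% and 2% of all), and, chosen after seeing the data, leaving out the 2 arrays farthest from the median Neurog1 signal (Neo2/- replicate 1 and Neo2/Neo replicate 2) gave 7 (2.07% of all).

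Within genotypes the same direction was found but no call. With the 9 genotype means beside the slope, which leaves 8 residual degrees of freedom, 7 of the 7 other genes had positive slopes. None of the 11 probe sets was called by limma and 1 probe set of the whole table was, while 8 of the 11 had an unadjusted p under 0.05, against 4.8% of all. The choice of members, made with earlier results known, limits this share as well. The slope of Nhlh2 was then 2.81 (SE 0.71, adjusted p = 0.692), that of Neurod1 1.04 (SE 0.32), and those of Hes5 1.12 (SE 0.38) and 1.18 (SE 0.25). The slope of Neurog2 was 0.40 (SE 1.05).

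**Figure D4:**
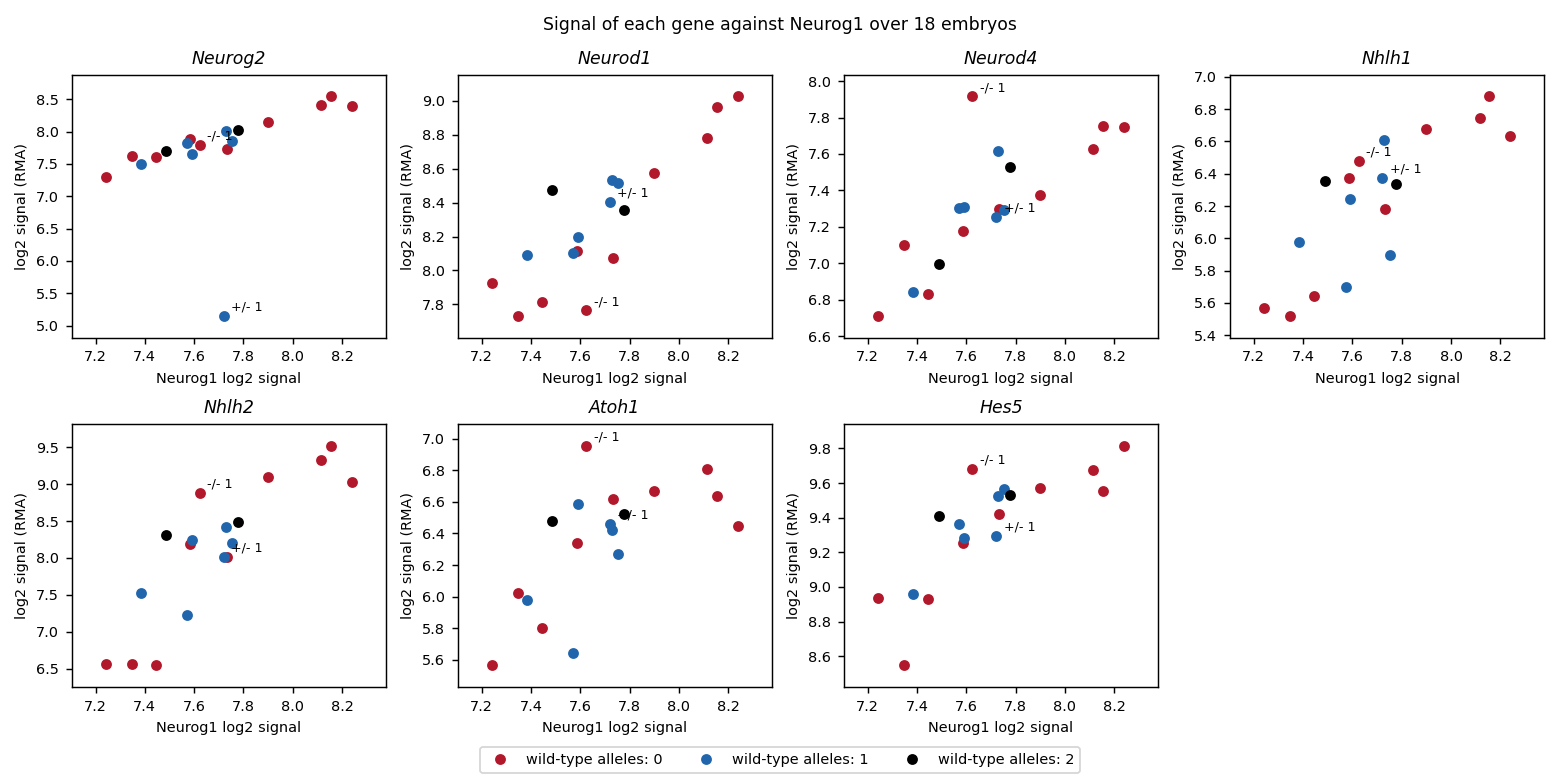
Log2 signal of the 7 other genes (y axes) against that of Neurog1 (x axis) in the 18 embryos, coloured by the number of wild-type alleles, with the 2 arrays that stood apart marked. 6 of the genes were called with a positive slope, and for Neurog2 the +/- replicate 1 array lies far below the rest.

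Of 18180 other genes, those whose signal was most like that of Neurog1 over the 18 embryos were Megf10, an engulfment receptor gene (Pearson r = 0.935), Plk3, a polo-like kinase gene (0.934), Insm1, a zinc finger gene of newborn neurons (0.934), Dbx1, a homeobox gene of interneuron progenitors (0.930), Chst15, a sulfotransferase gene (0.929), and Klc1, a kinesin light chain gene (0.927). The most opposite were Get1 (-0.914), Emb, which encodes an adhesion protein (-0.908), and Hopx (-0.900). These are the extremes of a ranking over all genes, so their size is a description.

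Genes of the wider pathway were read from lists, at the brightest probe set of each gene. In the lists, fell and rose mean called at an adjusted p under 0.05, and genes not called can also differ. Genes of neuronal differentiation downstream of proneural factors were lower in Neo2/Neo2 than in Neo2/Neo. Of 19, 18 had negative differences, 15 were called lower and 0 higher, with a median difference of -1.91 against 0.06 over all genes. The RNA-binding protein gene Elavl3 had 7.24 and 7.33 in Neo2/Neo2, against 9.36 and 9.17 in Neo2/Neo (-1.98, SE 0.29, adjusted p = 0.0129). The neurofilament relative Ina fell by 2.15 on the log2 scale (adjusted p = 0.0180), and the transcription factor genes Ebf3 and Ebf1 by 1.45 and 1.10. Between -/- and Neo2/Neo 18 of the 19 had negative differences and 6 were called lower, with a median of -1.18. Elavl3 fell by 1.59 (adjusted p = 0.0270) and Ina had a difference of -1.81 (adjusted p = 0.0353). The median of the list was -1.78 without -/- replicate 1 and -0.49 without -/- replicate 2, with 1 -/- embryo left in each fit. The alternatives for lists were chosen after seeing the data. Ina had -1.31 without -/- replicate 2. With Neurog1 18 of 19 had positive slopes and 16 were called, all positive, with a median slope of 1.95 against -0.06 over all genes.

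Few of the other neural bHLH genes were called. Of 10 measured (of 12 listed), Ptf1a fell in Neo2/Neo2 against Neo2/Neo (-1.14, adjusted p = 0.0350). It had dim signals of 4.32 and 4.37 in Neo2/Neo2 and 4.46 and 4.61 in WT, against 5.46 and 5.50 in Neo2/Neo. Ptf1a, Neurog3 and Olig1 rose with Neurog1, while Neurod2 had -0.10 per log2 (adjusted p = 0.692). The E proteins are the dimer partners, and the Id proteins bind E proteins and block them. Of these 7 genes, 4 had positive and 3 negative differences in Neo2/Neo2 against Neo2/Neo, with a median of 0.10. Only 1 was called, and it fell. This was Id4, an inhibitor, with 8.96 and 8.75 in Neo2/Neo2, against 10.89 and 10.80 in Neo2/Neo (-1.99, SE 0.39, adjusted p = 0.0234). Id4 rose with Neurog1 (1.96, adjusted p = 0.000578), as did the E protein gene Tcf4 (0.42, adjusted p = 0.0112). Among the 7, 4 slopes were positive and 3 negative.

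Of 22 Notch ligands, receptors and effectors, Hes6 fell and the effector gene Hey2 rose by 0.51 (adjusted p = 0.0374) in Neo2/Neo2 against Neo2/Neo. In -/- against Neo2/Neo 2 of 22 were called lower, the receptor gene Notch1 and the ligand gene Dll3. Notch1 had 7.95 and 9.01 in -/-, against 9.71 and 9.57 in Neo2/Neo (-1.15, SE 0.26, adjusted p = 0.0478), and the lower -/- array is replicate 1, which stood apart. Without it the difference of Notch1 was -0.62, and without -/- replicate 2 it was -1.69. Each of these fits leaves 1 -/- embryo, so the size depends on which of them is kept. The calls of Notch1 and Dll3 depend on this as well. With Neurog1, 16 of 22 had positive slopes and 6 negative ones. Of the 22, 6 were called, all with positive slopes: Dll3, Rbpj, Mfng, Hes6, Heyl and Nrarp, named after their values were seen. The ligand gene Jag1 had a slope of -0.09 (adjusted p = 0.886).

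Among neural progenitor genes, in Neo2/Neo2 against Neo2/Neo, 2 of 14 fell, Nes by 0.65 (adjusted p = 0.0408) and Dbx1 by 0.85 (adjusted p = 0.0227), with a list median of -0.09. The same 2 fell in -/- against Neo2/Neo, Nes by 0.77 and Dbx1 by 0.88, with -0.73 (adjusted p = 0.0658) for Nes without -/- replicate 1, and 5 of 14 rose with Neurog1, Sox2 among them (0.40, adjusted p = 0.0331). Of 14 identity genes of spinal and hindbrain neurons, 12 had negative differences in Neo2/Neo2 against Neo2/Neo and 3 were called lower. With Neurog1 13 had positive slopes and 5 were called, all positive. Lhx1, a gene of several interneuron classes, had 4.86 and 4.98 in Neo2/Neo2, against 7.53 and 7.22 in Neo2/Neo (-2.45, SE 0.38, adjusted p = 0.0138). Of 10 genes of cranial and dorsal root ganglia, 0 were called in either pair, and Isl1 (0.65, adjusted p = 0.00948) and Tlx3 (0.52, adjusted p = 0.0132) rose with Neurog1.

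**Figure D5:**
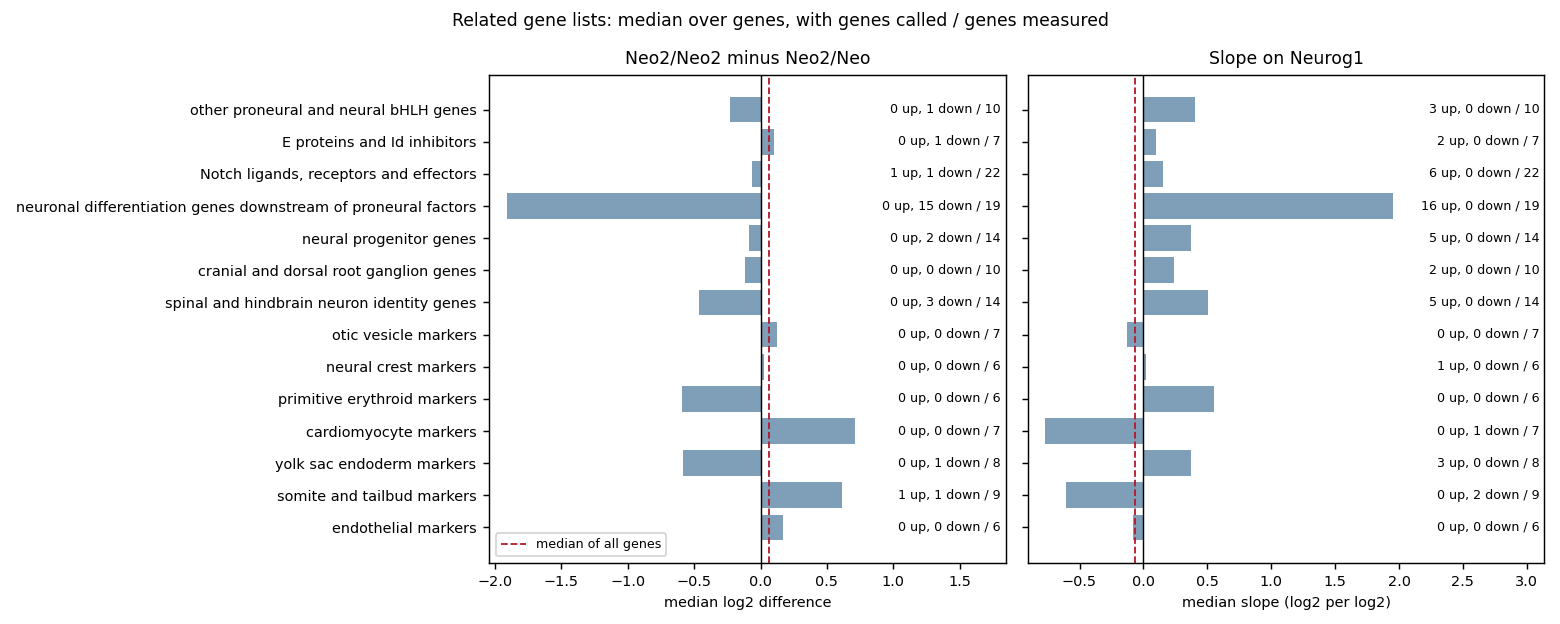
Median over the genes of each list (bars) of the log2 difference between Neo2/Neo2 and Neo2/Neo, at left, and of the slope on Neurog1, at right, with the number of genes called in each direction of those measured and the median of all genes as a dashed line. The list of neuronal differentiation genes stands farthest from the median of all genes in both panels, at -1.91 and 1.95.

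Markers of other tissues moved with the members in part. Of the otic vesicle markers, 0 of 7 were called in either pair or with Neurog1, with list medians of -0.02 in -/- and 0.12 in Neo2/Neo2 against Neo2/Neo, and a summed linear signal of 431 to 465 in Neo2/Neo2, against 390 to 409 in Neo2/Neo. Yolk sac endoderm markers had summed signals of 497 to 927 in Neo2/Neo2, against 3465 to 3538 in Neo2/Neo. Such a sum leans to the brightest markers. Of the 8, 5 had negative and 3 positive differences between Neo2/Neo2 and Neo2/Neo, with a median of -0.59. Only Afp was called, and it fell by 3.39 (adjusted p = 0.0208). With Neurog1, 5 of the 8 had positive slopes and 3 negative ones, and Afp, Ttr and Rbp4 were called as rising. In -/- the summed signal of the yolk sac markers was 862 to 1758.

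Cardiomyocyte markers lay the other way, with a summed signal of 14732 to 14744 in Neo2/Neo2, against 8853 to 9587 in Neo2/Neo. The 2 embryos of 1 genotype also lay far apart, at 6701 to 14642 in -/- and 6712 to 11868 in +/-. Both of these genotypes hold an array that stood apart. Of 7, 0 were called in that pair (median 0.71), and Ttn fell with Neurog1 (-1.14, adjusted p = 0.0346). Somite and tailbud markers summed to 1510 to 1671 in Neo2/Neo2, against 1177 to 1213 in Neo2/Neo: Cdx2 rose by 1.64 (adjusted p = 0.0230) and Myf5 fell by 0.66 (adjusted p = 0.0389). Of 9, Msgn1 (-0.79, adjusted p = 0.00206) and Tbx6 fell with Neurog1. Primitive erythroid markers summed to 46566 to 53093 in Neo2/Neo2, against 61814 to 63285 in Neo2/Neo, with 0 of 6 called and a median of -0.59. Within -/- the somite and tailbud markers spanned 1343 to 2128 and the erythroid markers 45990 to 56622.

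Of 6 neural crest and 6 endothelial markers, 0 were called in that pair, and Tfap2b rose with Neurog1 (0.42, adjusted p = 0.0200). RMA gives no zeros, so no marker was at 0. The dimmest gene was Hmx3 among the otic vesicle markers (mean 3.37) and Amn among those of the yolk sac (4.12). Without both arrays that stood apart, more markers were called in Neo2/Neo2 against Neo2/Neo, as were more of all probe sets. The share of all probe sets in this setting is given above with the calls of this pair. Of 7 cardiomyocyte markers 5 were called higher, and of 9 somite and tailbud markers 6 were called higher and 1 lower. Called lower were 4 of 6 erythroid and 3 of 8 yolk sac markers. Gbx2 of the otic vesicle and Tek of the endothelium were called higher and Tfap2b of the neural crest lower. The part of these tissues in the differences between members was not tested.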

How the data were processed

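RNA of 18 whole embryos (embryonic day 9.5, 6 ug each) was hybridised to 1 array per embryo, per the labels. The deposited table holds log2 signals of 45037 probe sets, normalised by the authors with RMA in affy, per the submitters' processing notes; no version is given in the sources used here. RMA was run before deposit, so raw probe intensities, detection calls and background were not used here. Symbols came from the platform annotation: 34945 probe sets had 1 symbol, 932 several and 9160 none. The brightest probe set stands for a gene.

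limma 3.58.1 in R 4.3.3 (lmFit, eBayes) fitted 9 genotype means (9 residual degrees of freedom), the mean per number of wild-type alleles, and slopes on the Tbx1 or Neurog1 signal. P-values were adjusted by the Benjamini-Hochberg method over all probe sets, with a threshold of 0.05. The fits were tested on simulated data. Alternatives were leaving out each array, both arrays that stood apart, array weights, embryo sex, median centring, an intensity trend, a floor of 5, only the compared arrays and a replicate block. Other genes were named as those of lowest F-test p in each list, with called genes of a list named after their values were seen. Members and lists were chosen with earlier results of these data known. The labels give no litter, so whether embryos of a genotype share one is not known.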

Additional observations from a re-analysis of the deposited data

Results flagged for a closer look

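Among the 26 groups of 6 or 10 arrays examined with Dixon's test at 95%, 3 held an array far from the others, and chance gives about 1 in 20 groups. Neurog2 on +/- replicate 1 had a log2 signal of 5.15, where the next lowest of the 6 arrays with 1 wild-type allele had 7.50. The dimmer probe set of Neurog1 had 6.45 on the same array, the highest of the 6, with 6.30 next. The dim probe set of Neurod4 had 3.41 on -/- replicate 1, the highest of the 10 arrays without a wild-type allele, with 3.27 next. Both arrays are those that stood apart from the rest over all probe sets, with median correlations of 0.975 and 0.985.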

How the results depend on the processing

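Leaving out both arrays that stood apart gave 2 called members in the F-test, 2 in Neo2/Neo2 minus WT, 4 in -/- minus Neo2/Neo and 10 in Neo2/Neo2 minus Neo2/Neo, where 2.77%, 2.02%, 5.23% and 11.1% of all probe sets were called. Array weights gave 1, 0 and 11 in the F-test, -/- minus Neo2/Neo and Neo2/Neo2 minus Neo2/Neo (2.96%, 0.00666% and 15.1% of all). Fitting only the compared arrays gave 1 in Neo2/Neo2 minus WT, 0 in -/- minus Neo2/Neo and 11 in Neo2/Neo2 minus Neo2/Neo (0.564%, 0% and 9.71% of all). Embryo sex as a covariate gave 0 in Neo2/Neo2 minus Neo2/Neo, and genotype means beside the slope on Neurog1 gave 0 (0.722% and 0.00222% of all). The cause was not tested. Leaving out 1 array gave 0 to 1 in the F-test and in +/- minus WT, 0 to 2 in -/- minus Neo2/Neo, 0 to 9 in Neo2/Neo2 minus Neo2/Neo, 7 to 10 for the slope on Neurog1 and 0 to 0 elsewhere. A lone array was then assumed to vary like the other genotypes. The replicate block gave 0 in the F-test, 1 and 3 in the pairs against Neo2/Neo and 8 for the slope on Neurog1. Replicate numbers did not pair the embryos: 9 of 36 genotype pairs had a correlation over 0.1. Of the 35 combinations of a member and a test called under any setting, none reversed, with 786 values keeping their side of the threshold, 67 losing a call and 63 gaining one. Of the 145 called in none, 68 changed sign. With 2 embryos a genotype, differences of the size of the spread within genotypes cannot be resolved.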

Other observations

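In some genotypes 1 embryo lay above the other on all or most members, read at the brightest probe set of each gene. Replicate 1 lay above replicate 2 for 8 of 8 genes in -/- (median difference 0.87, log2), for 8 of 8 in Neo/Neo (0.31), for 8 of 8 in Neo/+ (0.30) and for 7 of 8 in Neo2/- (0.48). In +/- it did so for 5 of 8, in Neo2/Neo2 for 3 of 8, and in Neo2/Neo, Neo2/+ and WT for 2 of 8 each. The array -/- replicate 1 stood apart over all probe sets, and this count was not made over all genes. The labels give no stage beyond the day of gestation.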
